A study of Mus musculus with 20 samples.

Results

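Dorsal skin of mice that had received IL-23 and afterwards saline was compared with skin of naïve mice, with 5 arrays in each group and 10 of the 20 arrays of the series in all. The arrays were chosen by their labels alone, namely treatment saline with the condition IL23 induced phenotype, and treatment naïve with the condition Normal. All mice were female C57BL/6 animals bought at 6 weeks of age and housed for 1 week before the study. IL-23 mice received 3 µg of recombinant mouse IL-23 intradermally on each day from day 1 to day 4, in phosphate-buffered saline, and then saline (the same buffer) under the skin at a distant site on days 4, 5 and 6. On day 7 the injected skin was taken. The methods give no injection of any kind for naïve mice, so that IL-23 cannot be told apart from the injections and their fluid. Full-thickness skin was measured as a whole, with 1 array per mouse, and precision is limited by the number of mice. In such bulk samples fewer cells of a type and less RNA per cell cannot be told apart. Below, IL-23 skin and IL-23 mice stand for the mice given IL-23 and saline, and the values of single mice are given in the order of replicates 1 to 5.

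IL-23 is a cytokine of dendritic cells and macrophages that maintains Th17 cells and other lymphocytes producing IL-17 and IL-22. Skin is also a metabolic and structural organ. Keratinocytes build a water barrier from ceramides, cholesterol and fatty acids, and adipocytes and sebaceous glands make and store fat. Fibroblasts keep up a matrix of collagen and proteoglycans, and vessels regulate the entry of leukocytes through adhesion molecules. Sensory axons with their Schwann cells convey itch and pain. The genes of these compartments are described here, grouped in lists by function.

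Expression is given as log2 values from GCRMA, the lowest of which was 2.02 on every array. Differences are log2 fold changes of IL-23 over naïve skin from limma, followed by ± and the standard error (SE), and adjusted p stands for the Benjamini-Hochberg adjusted p-value over all tested probe-sets. A gene rose or fell where its FDR was under 0.05 and its fold change (FCH) over 2. A group whose 5 mice all lay below 3 was taken as near background, and the fold change is then a lower bound, with lower values raised to 3. For a gene with several probe-sets, the brightest on average was used.

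The arrays of both groups were alike in the control probe-sets for RNA integrity. The 3′ minus 5′ difference for Gapdh lay between 0.57 and 0.69 in IL-23 mice and between 0.54 and 0.70 in naïve mice (exact permutation test, two-sided, p = 1.00). For actin it lay between 0.71 and 0.83 in IL-23 mice and between 0.73 and 0.90 in naïve mice (exact permutation test, two-sided, p = 0.111). Array medians were 6.09 to 6.18 in IL-23 mice and 6.15 to 6.27 in naïve mice (exact permutation test, two-sided, p = 0.0159). Epidermal keratins were at high levels in both groups, for instance Krt5 with means of 14.30 in IL-23 and 14.31 in naïve skin. Naïve mice were not uniform. The mean over the genes of the hair shaft and the growing (anagen) follicle was 12.85, 11.37, 9.14, 4.38 and 3.44 in naïve mice 1 to 5, against 2.82 to 3.00 in IL-23 mice. Naïve mouse 1 also had the lowest list mean among naïve mice for macrophage, fibroblast, endothelial and skeletal muscle genes. Therefore the fit was repeated without naïve mice 1 and 2, and the outcome is given wherever it ends a call.

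Of 13740 genes tested, 1240 rose (9.02%) and 1181 fell (8.60%) in IL-23 skin, with a median log2 fold change over all genes of -0.006. Of these, 526 rose and 330 fell by more than 2 on the log2 scale. The shares of 9.02% and 8.60% are the background for the counts of each list below. At the level of probe-sets, 2346 were higher (7.58%) and 2762 lower (8.93%) of 30936. All 5 IL-23 mice lay above all naïve mice in 1869 genes (13.6%) and below them in 1819 (13.2%). In 114 genes that rose the naïve mice were near background, and in 146 genes that fell the IL-23 mice were. Without naïve mice 1 and 2, 1094 genes rose (7.96%) and 1223 fell (8.90%). These included 939 of the 1240 genes that rose with all mice and 943 of the 1181 that fell, and no gene of either set changed its direction. Among the genes with the largest changes were enzymes outside the immune system. Uox, the urate oxidase that breaks down uric acid, had values of 12.11, 11.79, 12.41, 11.49 and 12.60 in IL-23 mice, against 6.98, 3.88, 2.06, 2.06 and 2.08 in naïve mice. All IL-23 mice lay above all naïve mice (log2 fold change 8.67 ± 1.21, adjusted p = 2.36e-05). Cbs, the enzyme that makes cystathionine from homocysteine, fell by 5.03 on the log2 scale (SE 0.63, adjusted p = 6.96e-06). Car6, a secreted carbonic anhydrase, fell by 6.54 (SE 0.93, adjusted p = 2.59e-05), with values of 2.45, 3.99, 3.26, 3.26 and 2.96 in IL-23 mice, against 13.16, 11.64, 9.79, 6.95 and 7.10 in naïve mice. Its naïve values were highest in the 3 mice with the highest hair genes.

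**Figure D1:**
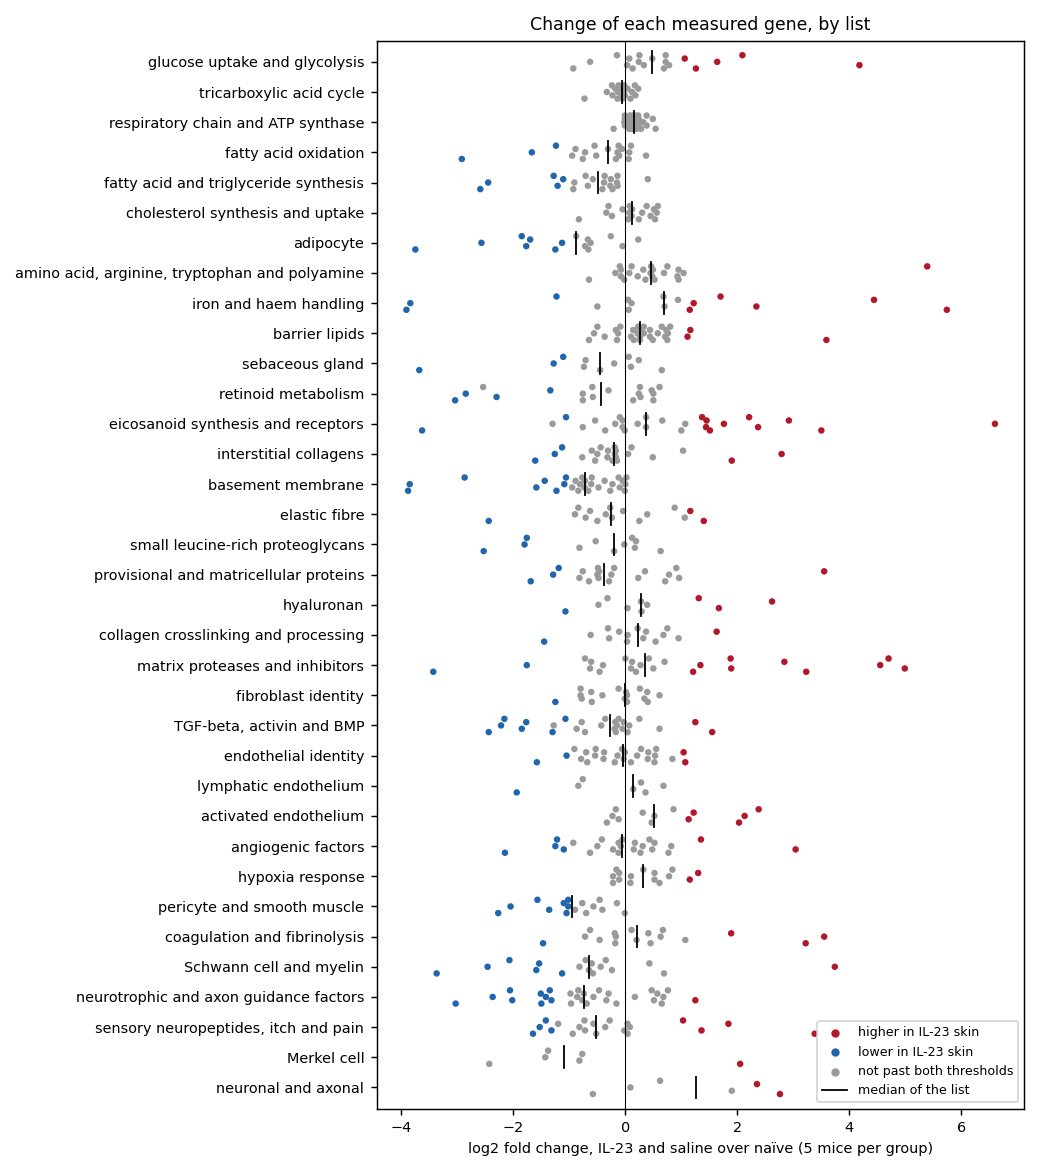
Log2 fold change of IL-23 and saline over naïve skin (x axis) for each tested gene of 35 lists (rows), with red points for genes that rose, blue for genes that fell, grey for genes that did not pass both thresholds and a black bar for the list median. The genes of the tricarboxylic acid cycle and of the respiratory chain stay close to 0. By count, genes that rose are most numerous in the eicosanoid (10 of 27) and matrix protease (9 of 24) lists. The smaller lists of activated endothelium (5 of 13) and of iron and haem (6 of 16) have similar shares, against 9.02% of all genes.

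In glucose uptake and glycolysis, 5 of 19 genes rose and 0 fell, with a median of 0.48. Pfkfb4, a kinase and phosphatase that sets the level of the glycolytic activator fructose 2,6-bisphosphate, had values of 10.28, 10.25, 10.43, 10.35 and 10.69 in IL-23 mice, against 7.82, 8.27, 8.41, 8.32 and 8.72 in naïve mice. All IL-23 mice lay above all naïve mice (log2 fold change 2.09 ± 0.14, adjusted p = 8.65e-09). Hk3, a hexokinase of myeloid cells, had values of 10.40, 10.76, 10.56, 10.76 and 9.90 in IL-23 mice, against 3.38, 4.47, 7.59, 7.80 and 8.22 in naïve mice. It rose by 4.18 ± 0.69, and by 2.61 without naïve mice 1 and 2, which had its lowest values. Slc16a3, which exports lactate, rose by 1.64 ± 0.30, the glucose transporter Slc2a3 by 1.26 ± 0.25 and the phosphofructokinase Pfkl by 1.06 ± 0.18. Without naïve mice 1 and 2, Slc2a3 and Pfkl were at 0.95 and 0.97 and no longer passed the FCH threshold. Slc2a1, the glucose transporter of most cells, was at 0.78 ± 0.10 (adjusted p = 8.47e-06), below that threshold, with all IL-23 mice above all naïve mice, and of its other tested probe-sets 1 was called higher at 1.13 and 1 was at 0.53. Ldha, which makes lactate, was at 0.03 ± 0.07 (adjusted p = 0.778) and Hk2, a hexokinase, at 0.07 ± 0.12 (adjusted p = 0.629). Neutrophil genes, which rose in 11 of 11 members, had list means of 10.17 to 11.28 in IL-23 mice and 4.84 to 5.93 in naïve mice, and their part in the rise of Hk3 was not tested. That list includes S100a8, S100a9 and Lcn2, which the authors count among keratinocyte genes regulated by IL-17, so that it is not specific to neutrophils.

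No mitochondrial gene of 2 lists was called. Of 20 genes of the tricarboxylic acid cycle, 0 rose and 0 fell, with a median of -0.06, and of 31 genes of the respiratory chain and ATP synthase 0 rose and 0 fell, with a median of 0.15. At an unadjusted p under 0.05, 2 genes of the cycle were higher and 5 lower, as were 14 and 1 of the chain (limma). Cs, the citrate synthase, had means of 13.94 ± 0.12 in IL-23 and 14.17 ± 0.05 in naïve skin (SD, n = 5 each). Atp5b, a subunit of ATP synthase, was at -0.01 ± 0.07 (95% interval -0.16 to 0.14). Genes of cholesterol synthesis and uptake did not pass the thresholds either (0 of 18 in either direction, median 0.12, 6 higher and 2 lower at an unadjusted p under 0.05).

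Genes of fat storage and of fat synthesis fell in part in IL-23 skin, and 0 of them rose. Of 15 adipocyte genes, 7 fell and 0 rose, with a median of -0.88. Lep, which encodes the satiety hormone leptin, had values of 5.28, 4.10, 5.47, 4.68 and 5.82 in IL-23 mice, against 8.76, 8.89, 8.52, 9.43 and 8.51 in naïve mice. No IL-23 mouse came within 2 units of a naïve mouse (log2 fold change -3.75 ± 0.38, adjusted p = 7.96e-07). Adipoq, the hormone adiponectin, had values of 11.45, 11.11, 11.75, 12.24 and 11.98 in IL-23 mice, against 13.11, 13.56, 13.76, 13.32 and 13.65 in naïve mice (log2 fold change -1.77 ± 0.17, adjusted p = 5.62e-07). Cidec and Plin4, which coat lipid droplets, fell by 2.57 (SE 0.35) and 1.85 (SE 0.29), and Slc2a4, the insulin-responsive glucose transporter, by 1.70 (SE 0.31). Pparg, the transcription factor of adipocytes, was at -0.72 ± 0.20 (adjusted p = 0.00714) and passed both thresholds without naïve mice 1 and 2 (-1.04). Of 20 genes of fatty acid and triglyceride synthesis, 5 fell and 0 rose (median -0.50). They were Mlxipl, the transcription factor ChREBP that responds to glucose (-2.59 ± 0.38), Mogat1 (-2.45 ± 0.34), Thrsp (-1.28 ± 0.43), Lpin1 (-1.21 ± 0.23) and the desaturase Fads2 (-1.11 ± 0.35). Fads2 was at -0.42 without naïve mice 1 and 2 and then did not pass, and Thrsp was at -0.87 without IL-23 mouse 2 (adjusted p = 0.0659). Fasn, the fatty acid synthase, was just short of the FCH threshold at -0.93 ± 0.21 (adjusted p = 0.00164), while Acaca and Dgat2 were at -0.14 ± 0.15 and -0.23 ± 0.17.

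Of 19 genes of fatty acid oxidation, 3 fell and 0 rose (median -0.31). Ppara, the nuclear receptor that switches on fatty acid oxidation, had values of 3.90, 4.46, 4.23, 5.25 and 5.04 in IL-23 mice, against 6.49, 7.24, 8.43, 7.64 and 7.68 in naïve mice. The groups did not overlap (log2 fold change -2.92 ± 0.30, adjusted p = 8.4e-07), and 2 other probe-sets of Ppara fell by 2.07 and 1.92. Pdk4, a kinase that blocks the entry of pyruvate into the tricarboxylic acid cycle, fell by 1.67 (SE 0.30, adjusted p = 0.00024). The peroxisomal thiolase Acaa1b fell by 1.24 (SE 0.38). Cpt1a, the carrier step into mitochondria, was at -0.17 ± 0.14 (adjusted p = 0.339). Genes of skeletal muscle, which burns fat and lies beneath mouse skin, had list means of 11.91 to 12.56 in IL-23 mice and 12.08 to 13.38 in naïve mice, and 5 of 25 fell. The part of muscle and fat tissue in the fall of these enzymes was not tested.

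Iron and haem genes moved in both directions, with 6 of 16 higher and 3 lower (median 0.69). Hpx, which encodes hemopexin, a plasma protein that captures free haem, had values of 6.51, 6.44, 6.11, 6.99 and 6.23 in IL-23 mice, against 2.02, 2.02, 2.02, 2.02 and 2.02 in naïve mice. All naïve mice were at the lowest value, and IL-23 skin was at least 11.0-fold higher (adjusted p = 1.29e-13). Cp, the copper-containing ferroxidase ceruloplasmin, rose by 1.70 ± 0.29, and Slc11a1, a metal transporter of phagosomes, by 2.34 ± 0.42. Hamp, which encodes hepcidin, the hormone that blocks iron export, had values of 2.23, 2.96, 2.40, 2.51 and 3.04 in IL-23 mice, against 2.96, 4.83, 7.28, 8.13 and 9.48 in naïve mice. The IL-23 mice lay around the value of naïve mouse 1 and below those of the other naïve mice, which ranged widely (log2 fold change -3.91 ± 0.79, adjusted p = 0.00071). Slc40a1, ferroportin, the iron exporter on which hepcidin acts, fell by 1.23 (SE 0.37, adjusted p = 0.0107), and by 0.55 without naïve mice 1 and 2, where it did not pass. Cybrd1, an iron reductase, fell by 3.84 (SE 0.73), with IL-23 values of 4.09, 3.49, 3.49, 4.45 and 4.91 and naïve values of 11.10, 9.08, 7.35, 5.46 and 6.66, and by 2.40 without naïve mice 1 and 2. Hp, haptoglobin, and Tfrc, the transferrin receptor, were at 0.05 ± 0.22 and 0.11 ± 0.11 (adjusted p = 0.883 and 0.402).

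In amino acid and polyamine metabolism 1 of 23 genes rose and 0 fell (median 0.45). It was Slc7a11, the transporter that imports cystine for glutathione synthesis, with values of 7.03, 7.72, 8.68, 6.79 and 7.60 in IL-23 mice, against 2.80, 2.02, 2.02, 2.02 and 2.02 in naïve mice. Naïve skin was near background, and IL-23 skin at least 23.6-fold higher (adjusted p = 3.83e-08). Arg1, arginase 1, had values of 10.41, 13.38, 12.78, 10.47 and 10.73 in IL-23 mice, against 11.93, 11.24, 11.68, 11.00 and 10.80 in naïve mice. IL-23 mice 2 and 3 lay above all naïve mice and the other 3 IL-23 mice below them, so that the mean difference was 0.22 ± 0.64 (adjusted p = 0.798). Nos2, the inducible nitric oxide synthase that competes with arginase for arginine, was above the lowest value only in IL-23 mice 2 and 3, at 3.60 and 5.64 (adjusted p = 0.0815). The same mice had the highest values of Ido1, which breaks down tryptophan, at 4.21 and 3.40 (adjusted p = 0.0708).

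**Figure D2:**
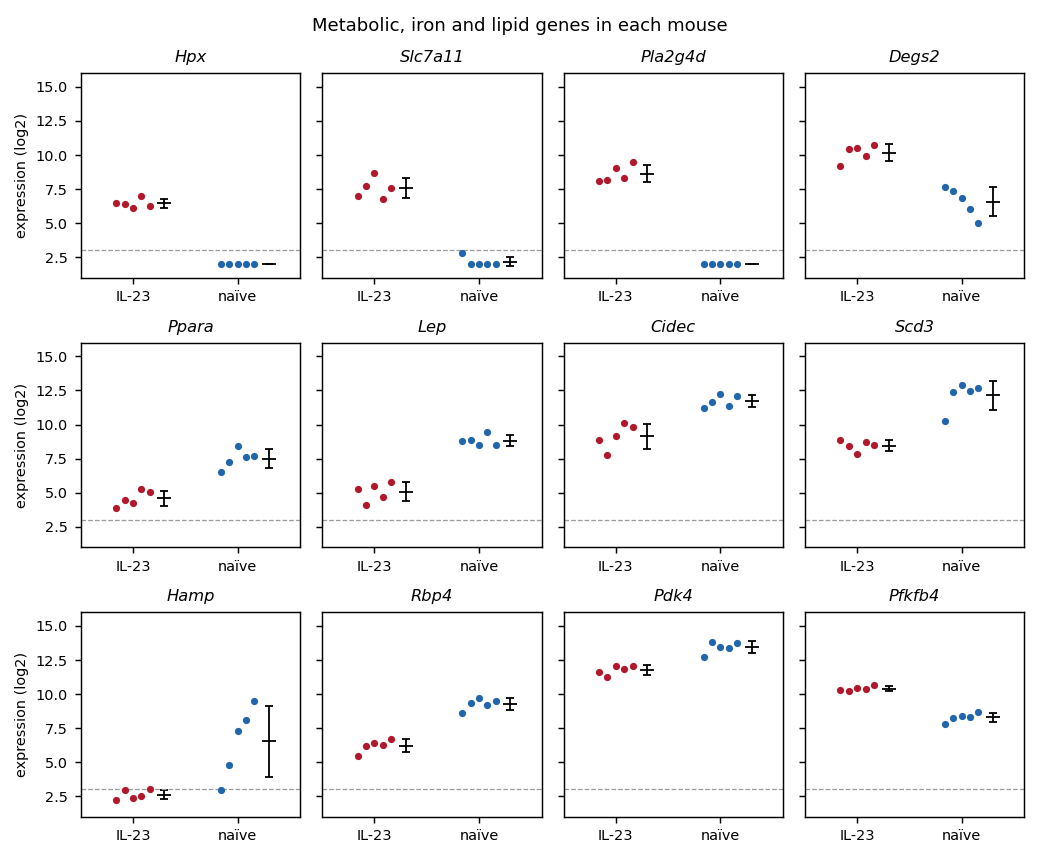
Expression on the log2 scale (y axis) of 12 metabolic genes in each mouse, with IL-23 and saline in red on the left, naïve in blue on the right, mean and SD (n = 5 mice) as black bars and the limit of 3 for near background as a dashed line. In Hpx, Slc7a11 and Pla2g4d all naïve mice lie near background, whereas Hamp and Rbp4 are higher in naïve skin.

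Of 31 genes of barrier lipids, 3 rose and 0 fell (median 0.26), and the share that rose was close to the 9.02% over all genes. Degs2, which makes the phytoceramides of skin, had values of 9.17, 10.43, 10.55, 9.95 and 10.75 in IL-23 mice, against 7.67, 7.33, 6.84, 6.03 and 5.03 in naïve mice. All IL-23 mice lay above all naïve mice (log2 fold change 3.59 ± 0.50, adjusted p = 2.28e-05). Sptlc2, a subunit of the enzyme that starts sphingolipid synthesis, rose by 1.16 ± 0.12 (adjusted p = 6.83e-07), with values of 12.53, 12.52, 12.62, 12.40 and 12.46 in IL-23 mice and 11.29, 11.09, 11.49, 11.49 and 11.34 in naïve mice, whereas its other tested probe-set was at -0.12. Abca12, the lipid transporter of lamellar granules, rose by 1.11 ± 0.29, and by 0.79 without naïve mice 1 and 2, where it did not pass. Other members were not called at the probe-set used. Ugcg was at 0.44 ± 0.12 (adjusted p = 0.00497), while 2 of its 3 other tested probe-sets were called higher, at 1.89 and 1.48. The remaining one was at 0.70. Cers3 and Elovl4, which make ultra-long ceramides, were at 0.58 ± 0.23 and -0.17 ± 0.10, and the lipoxygenases Alox12b and Aloxe3 at 0.76 ± 0.35 and -0.13 ± 0.26.

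Some sebaceous and retinoid genes were lower. Of 11 sebaceous gland genes 3 fell and 0 rose (median -0.45). Of these 3, Fads2 was also counted among the genes of fatty acid synthesis. Without naïve mice 1 and 2, where Fads2 did not pass, 2 fell and 1 rose, namely Elovl3 (1.13, adjusted p = 0.0217). Scd3, a desaturase of sebocytes, had values of 8.84, 8.40, 7.84, 8.72 and 8.47 in IL-23 mice, against 10.25, 12.38, 12.92, 12.44 and 12.67 in naïve mice. The groups did not overlap (log2 fold change -3.68 ± 0.42, adjusted p = 2.54e-06). Acsbg1, an acyl-CoA synthetase, fell by 1.28 (SE 0.22). With all mice Elovl3, an elongase of sebum and hair lipids, was at 0.65 ± 0.36 (adjusted p = 0.155). The sebocyte receptor Mc5r was near background in both groups. Of 18 genes of retinoid metabolism, 4 fell and 0 rose (median -0.44). Rbp4, which carries retinol, had values of 5.45, 6.22, 6.44, 6.28 and 6.73 in IL-23 mice, against 8.59, 9.35, 9.73, 9.17 and 9.47 in naïve mice. All IL-23 mice lay below all naïve mice (log2 fold change -3.04 ± 0.30, adjusted p = 5.36e-07). The enzymes that make retinoic acid, Aldh1a2 and Aldh1a1, were lower too. Aldh1a2 was near background in IL-23 skin and at least 3.98-fold lower (adjusted p = 0.000872), and Aldh1a1 fell by 1.34 (SE 0.34). Aldh1a3, the third enzyme of this step, had values of 7.92, 7.91, 8.84, 8.23 and 8.85 in IL-23 mice, against 10.47, 9.09, 7.63, 6.73 and 6.63 in naïve mice. The groups overlapped, and it passed the thresholds without naïve mice 1 and 2 (1.35, against 0.24 ± 0.57 with all mice).

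Eicosanoids are lipid mediators made from arachidonic acid, which phospholipases release from membranes. Of 27 genes, 10 rose and 2 fell (median 0.37). Pla2g4d, a phospholipase of stratified epithelium, had values of 8.07, 8.19, 9.06, 8.30 and 9.47 in IL-23 mice, against 2.02, 2.02, 2.02, 2.02 and 2.02 in naïve mice. It was at the lowest value in all naïve mice and at least 49.1-fold higher in IL-23 skin (adjusted p = 1.69e-06). The related Pla2g4e had values of 12.41, 12.54, 12.95, 12.43 and 13.18 in IL-23 mice, against 9.42, 9.46, 9.05, 9.28 and 8.78 in naïve mice (log2 fold change 3.50 ± 0.26, adjusted p = 2.52e-08). Of the enzymes that lead to prostaglandin E2, the cyclooxygenase Ptgs2 rose by 2.37 ± 0.48 (with a second probe-set at 1.01 that was not called) and the synthase Ptges by 1.45 ± 0.25. Ptgis, the prostacyclin synthase, rose by 2.92 ± 0.81, and by 1.89 without naïve mouse 1, and the lipoxygenase Alox15 by 2.21 ± 0.51, while Hpgd, which inactivates prostaglandins, was at -0.05 ± 0.26 (adjusted p = 0.899). Ptgds, which makes prostaglandin D2, fell, with values of 8.34, 8.46, 8.69, 8.85 and 8.82 in IL-23 mice, against 14.72, 13.66, 12.47, 10.06 and 10.39 in naïve mice. Its naïve values followed the order of the hair genes in mice 1 to 3, and the fold change was -2.34 without naïve mice 1 and 2, against -3.63 ± 0.62 with all mice. Ptger3, a receptor of prostaglandin E2, fell by 1.06 (SE 0.28), and was at -0.88 without naïve mice 1 and 2, where it did not pass.

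Of 20 genes of water and ion transport, 6 rose and 2 fell (median 0.11). Aqp3, the water and glycerol channel of keratinocytes, had values of 12.06, 12.57, 13.49, 12.99 and 13.29 in IL-23 mice, against 11.64, 11.48, 11.67, 11.75 and 11.18 in naïve mice (log2 fold change 1.34 ± 0.27, adjusted p = 0.000634). Atp12a, a proton and potassium pump, rose by 1.87 ± 0.43, the carbonic anhydrase Car2 by 1.71 ± 0.49 and the sodium channel subunit Scnn1a by 1.19 ± 0.29. The other genes that fell and rose include Aqp5, the water channel of glands, which fell by 1.30 (SE 0.40) and was just short of the FCH threshold without naïve mouse 4, and the potassium channel Kcnn4, which rose by 1.54 ± 0.49 and was at 0.75 without naïve mice 1 and 2, where it did not pass.

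In the matrix, the abundant collagens of the dermis were not called, while several chains of basement membranes fell. Of 22 interstitial collagen genes, 2 rose and 3 fell (median -0.21). Col1a1 had means of 14.41 ± 0.09 in IL-23 and 14.72 ± 0.23 in naïve skin (SD, n = 5 each), close to the top of the scale of the arrays, and Col3a1 was at -0.15 ± 0.09 (adjusted p = 0.176). Col8a1, a network collagen of vessels, rose by 2.79 ± 0.58, with IL-23 values of 7.36, 8.32, 8.67, 6.03 and 7.37 and naïve values of 5.17, 5.58, 4.26, 3.60 and 5.20. Col8a2, Col16a1 and Col15a1 fell by 1.61, 1.26 and 1.13 (SE 0.30, 0.19 and 0.16).

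Of 28 basement membrane genes, 8 fell and 0 rose (median -0.73). Frem2, which anchors the epidermal basement membrane, had values of 2.20, 3.87, 2.20, 3.87 and 4.71 in IL-23 mice, against 7.12, 7.39, 7.21, 7.29 and 7.23 in naïve mice. The groups lay more than 2 units apart (log2 fold change -3.88 ± 0.36, adjusted p = 2.84e-07). The paired collagen IV chains Col4a5 and Col4a6 fell together. Col4a5 had values of 6.91, 7.02, 6.39, 6.92 and 7.07 in IL-23 mice, against 10.00, 9.87, 9.39, 9.52 and 9.90 in naïve mice (log2 fold change -2.87 ± 0.19, adjusted p = 5.04e-09). Col4a6 had values of 4.19, 5.83, 5.15, 7.28 and 6.52 in IL-23 mice, against 9.21, 9.98, 10.10, 9.49 and 9.43 in naïve mice (log2 fold change -3.85 ± 0.42, adjusted p = 1.63e-06). Col4a1, the common chain, was at -0.60 ± 0.14 (adjusted p = 0.00257) and not called, while its other tested probe-set was called lower at -1.09. Lama2, a laminin chain of muscle and nerve, fell by 1.44 (SE 0.24). Fras1, the partner of Frem2, was near background in IL-23 skin and was called lower (at least 1.96-fold, adjusted p = 0.0212), with values of 2.17, 2.24, 2.24, 2.24 and 2.24 in IL-23 mice, against 6.89, 3.95, 2.72, 2.82 and 2.69 in naïve mice. Naïve mouse 1 stood well above the others, and without naïve mice 1 and 2 the log2 fold change was -0.52.

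Other matrix proteins divided. Tnc, tenascin-C, a protein of healing wounds, had values of 13.38, 13.93, 14.01, 13.34 and 13.60 in IL-23 mice, against 12.41, 10.91, 9.47, 9.37 and 8.35 in naïve mice. All IL-23 mice were above all naïve mice (log2 fold change 3.55 ± 0.60, adjusted p = 0.000134), and naïve mouse 1 was the closest to them. Tnc was the only member that rose of 20 provisional and matricellular genes, of which 3 fell (median -0.38). Thbs1 was just short of the FCH threshold at 0.96 ± 0.27 (adjusted p = 0.0074), while its other tested probe-set was called higher at 1.34. Without naïve mice 1 and 2, Thbs1 was at 1.01 and passed (adjusted p = 0.0203). Fn1, fibronectin, was at -0.48 ± 0.23 (adjusted p = 0.0897), and Postn, periostin, at 0.23 ± 0.10 (adjusted p = 0.0716). Smoc1, Sparcl1 and Smoc2 fell by 1.69, 1.29 and 1.19 (SE 0.36, 0.26 and 0.20). Of 11 small leucine-rich proteoglycans, which bind collagen fibrils, 3 fell and 0 rose (median -0.20). Fmod, fibromodulin, had values of 9.00, 8.72, 9.05, 9.92 and 10.18 in IL-23 mice, against 10.91, 12.06, 12.63, 11.93 and 11.99 in naïve mice (log2 fold change -2.53 ± 0.44, adjusted p = 0.000185), and all 5 of its other tested probe-sets fell by 1.95 to 3.13. Kera and Omd fell by 1.80 and 1.76 (SE 0.37 and 0.31), whereas the most abundant members, Dcn and Lum, were at -0.20 ± 0.10 and 0.17 ± 0.24. Among 16 elastic fibre genes 2 rose and 1 fell (median -0.26). Emilin1 and Fbn2 rose by 1.40 ± 0.28 and 1.16 ± 0.28 (Fbn2 by 0.84 without naïve mouse 3, where it did not pass), Ltbp4, which assembles elastic fibres, fell by 2.44 (SE 0.30), and Eln, elastin, was at -0.63 ± 0.27 (adjusted p = 0.063).

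Hyaluronan is a sugar chain that fills the space between cells. Of 10 genes, 3 rose and 1 fell (median 0.28). Has3, a hyaluronan synthase of keratinocytes, had values of 6.08, 6.29, 7.41, 5.93 and 7.41 in IL-23 mice, against 5.33, 3.77, 3.70, 4.03 and 3.20 in naïve mice (log2 fold change 2.62 ± 0.40, adjusted p = 4.88e-05). Tnfaip6, which links proteins to hyaluronan in inflammation, rose by 1.31 ± 0.33. Has1 was near background in naïve skin and called higher (at least 2.12-fold, adjusted p = 0.0409), yet IL-23 mice 1 and 4 were at 2.37 and 2.19, and without naïve mice 1 and 2 the adjusted p was 0.0988. It also did not pass with any single naïve mouse left out, or without IL-23 mouse 2, 3 or 5. Has2, the synthase of fibroblasts, was at -0.48 ± 0.52 (adjusted p = 0.467). Itih5, a hyaluronan-binding protein, fell by 1.07 (SE 0.23), and was at -0.92 without IL-23 mouse 3, where it did not pass. Of 15 genes of collagen crosslinking and processing 1 rose and 1 fell (median 0.22). Lox, which crosslinks collagen and elastin, was at 0.75 ± 0.26 (adjusted p = 0.0273). Loxl3 rose by 1.63 ± 0.43, and by 0.84 without naïve mice 1 and 2, where it did not pass. Pcolce2, which helps to process procollagen, fell by 1.45 (SE 0.30).

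Several matrix proteases rose, and their inhibitors moved in opposite directions. Of 24 genes, 9 rose and 2 fell (median 0.34). Timp1, an inhibitor of metalloproteinases induced in wounds, had values of 14.01, 14.16, 14.20, 13.34 and 13.43 in IL-23 mice, against 8.34, 9.00, 9.05, 10.53 and 9.47 in naïve mice. The groups lay more than 2 units apart (log2 fold change 4.55 ± 0.38, adjusted p = 7.43e-08). Timp3 and Timp4 fell. Timp4 had values of 4.10, 2.91, 3.10, 5.48 and 4.74 in IL-23 mice, against 7.19, 7.81, 7.41, 7.77 and 7.26 in naïve mice (log2 fold change -3.43 ± 0.47, adjusted p = 1.86e-05). Timp3, an inhibitor bound to the matrix, fell by 1.76 (SE 0.18, adjusted p = 9.66e-07), and its 3 other tested probe-sets fell by 1.82 to 3.32. Mmp13, the main collagenase of mice, had values of 7.08, 8.76, 8.55, 5.63 and 6.87 in IL-23 mice, against 2.02, 2.36, 2.42, 2.85 and 2.27 in naïve mice. It was near background in all naïve mice and at least 20.8-fold higher in IL-23 skin (adjusted p = 5.37e-05). Mmp8, the collagenase of neutrophils, was at least 13.1-fold higher (adjusted p = 5.58e-08) and Mmp10, a stromelysin, at least 5.25-fold (adjusted p = 0.000439), both from near background. Mmp12, the elastase of macrophages, rose by 2.84 ± 0.50 and the gelatinase Mmp9 by 1.88 ± 0.53. Mmp3, another stromelysin, had values of 13.38, 13.34, 13.25, 13.10 and 13.25 in IL-23 mice, against 9.31, 12.58, 12.56, 12.17 and 13.00 in naïve mice. It rose by 1.34 ± 0.45, with naïve mouse 1 far below all other mice, and without naïve mice 1 and 2 it was at 0.69 and did not pass the FCH threshold. Plaur, the receptor of urokinase, rose by 1.89 ± 0.40.

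The promoters of 4 of these proteases and of Plaur are shown because these genes were called higher and share a short motif of AP-1, the family of Fos and Jun proteins. Mmp3, Mmp10, Mmp12 and Mmp13 are neighbours in 1 gene cluster on chromosome 9, and Plaur lies on chromosome 7. The 120 bases before the start site are given from RefSeq (GRCm38.p6, plus strand), with a match to TGANTCA in capitals.
Mmp13: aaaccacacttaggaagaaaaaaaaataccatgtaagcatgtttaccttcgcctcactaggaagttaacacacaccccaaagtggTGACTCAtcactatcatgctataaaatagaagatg
Mmp3: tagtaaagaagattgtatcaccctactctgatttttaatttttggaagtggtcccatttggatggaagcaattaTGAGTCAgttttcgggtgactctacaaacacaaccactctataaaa
Mmp10: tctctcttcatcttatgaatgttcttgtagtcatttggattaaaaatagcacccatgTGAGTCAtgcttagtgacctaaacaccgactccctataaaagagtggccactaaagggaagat
Mmp12: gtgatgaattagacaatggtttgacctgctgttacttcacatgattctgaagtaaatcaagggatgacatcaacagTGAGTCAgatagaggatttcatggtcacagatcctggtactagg
Plaur: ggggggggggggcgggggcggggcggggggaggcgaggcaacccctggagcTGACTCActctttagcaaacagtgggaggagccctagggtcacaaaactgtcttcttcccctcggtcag
The windows are chr9:7272394-7272513 for Mmp13, chr9:7445702-7445821 for Mmp3, chr9:7502222-7502341 for Mmp10, chr9:7347254-7347373 for Mmp12 (the start site listed as number 2 of 2) and chr7:24462363-24462482 for Plaur. In Mmp13 the match spans bases 35 to 29 before the start, in Mmp3 46 to 40, in Mmp10 63 to 57, in Mmp12 44 to 38 and in Plaur 69 to 63. Within 250 bases before the start, 5 of the 7 members that rose and have a promoter in the table held this motif. So did 0 of 2 members that fell, 0 of 6 that did neither and 6.75% of all 32851 promoters. A member was counted if any of its listed starts had a match, whereas the share over all is per promoter, so that the measures are unlike. Of the 5 members, 4 are neighbours in 1 cluster and not independent, and no enrichment was tested. The motif reads the same on both strands. The set was chosen after the values were seen, and 3 other motifs were searched on both strands, the NF-κB type (GGG and TTNCC with NN between them), the STAT motif TTCNNNGAA and the C/EBP motif TTGCNNAA. They were found for 0, 0 and 5 of the 7 members and in 4.11%, 7.02% and 9.56% of all promoters. Fos, Junb and Atf3, immediate early genes of the AP-1 family and its relatives, rose by 1.36 ± 0.27, 1.27 ± 0.26 and 1.26 ± 0.31. They were the 3 members that rose of 16 immediate early genes, of which 0 fell (median 0.54), against 9.02% and 8.60% of all genes. Of the other Fos and Jun genes of that list, Jun and Jund were at -0.32 ± 0.13 and -0.06 ± 0.08 (adjusted p = 0.051 and 0.578). Fosb was at 0.34 ± 1.03 (adjusted p = 0.807), and Fosl1 was higher on average but did not pass (adjusted p = 0.241). The part of AP-1 in the rise of the proteases was not tested.

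Fibroblast and growth factor genes gave a mixed picture. Of 17 fibroblast genes, 1 fell and 0 rose (median -0.01). Pdgfra and Thy1, markers of dermal fibroblasts, were at 0.03 ± 0.19 and 0.26 ± 0.15 (adjusted p = 0.902 and 0.159), and Fap, a protease of activated fibroblasts, fell by 1.25 (SE 0.23). Of 26 genes of TGF-β, activin and BMP signaling 2 rose and 7 fell (median -0.27). Tgfb1 had values of 9.29, 9.31, 9.01, 9.38 and 9.39 in IL-23 mice, against 7.28, 7.02, 8.03, 8.03 and 8.29 in naïve mice (log2 fold change 1.55 ± 0.27, adjusted p = 0.000166). Tgfb2 went the other way, with values of 9.68, 9.17, 9.55, 10.13 and 10.11 in IL-23 mice, against 9.79, 11.13, 11.41, 11.07 and 11.74 in naïve mice. Naïve mouse 1 lay among the IL-23 mice and the other naïve mice above them (log2 fold change -1.30 ± 0.26, adjusted p = 0.000717). Inhba, which encodes activin A, rose by 1.25 ± 0.49, with IL-23 mouse 3 highest at 8.57, and was at 0.64 without that mouse (adjusted p = 0.104). It also did not pass without IL-23 mouse 2 or 5, or without naïve mouse 2, 3, 4 or 5. Bmp2, a differentiation signal of epidermis and follicle, had values of 8.77, 9.05, 8.85, 9.31 and 9.20 in IL-23 mice, against 10.87, 10.95, 10.80, 11.01 and 10.81 in naïve mice (log2 fold change -1.85 ± 0.21, adjusted p = 3.25e-06). Bmp4 fell by 2.16 (SE 0.30), Bmp6 by 2.44 (SE 0.50) and the BMP antagonist Chrdl1 by 1.77 (SE 0.32). Bambi fell by 2.22 (SE 0.76), but was at -0.53 without naïve mice 1 and 2, where it did not pass.

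In vessels, several adhesion molecules of activated endothelium rose. Of 26 endothelial identity genes, 2 rose and 2 fell (median -0.04), close to the shares over all genes (9.02% and 8.60%). Cdh5 and Kdr, which define endothelium, were at -0.03 ± 0.11 and -0.19 ± 0.24 (adjusted p = 0.857 and 0.556), and Pecam1 at 0.53 ± 0.23 (adjusted p = 0.0746). Ecscr and Icam2 rose by 1.07 ± 0.21 and 1.04 ± 0.25, but by 0.77 and 0.66 without naïve mice 1 and 2, where neither passed. Sox18 and Robo4, a transcription factor and a guidance receptor of endothelium, fell by 1.58 and 1.05 (SE 0.26 and 0.25). Robo4 was at -0.87 without IL-23 mouse 1, where it did not pass. Without naïve mice 1 and 2, 4 of the 26 fell and 0 rose (median -0.28), namely Sox18, Robo4, Tek (-1.15) and S1pr1 (-1.14). Of 13 genes of activated endothelium, 5 rose and 0 fell (median 0.52). Sele, E-selectin, which slows leukocytes in the blood stream, had values of 5.96, 5.94, 4.74, 5.05 and 4.30 in IL-23 mice, against 2.21, 2.55, 2.37, 4.11 and 2.85 in naïve mice. The lowest IL-23 mouse lay just above the highest naïve mouse (log2 fold change 2.38 ± 0.33, adjusted p = 2.25e-05). Selp, P-selectin, had values of 10.29, 10.90, 11.20, 10.23 and 9.98 in IL-23 mice, against 7.08, 8.31, 8.85, 9.34 and 8.90 in naïve mice (log2 fold change 2.03 ± 0.32, adjusted p = 8.67e-05). Vcam1, to which lymphocytes and monocytes bind firmly, had values of 10.91, 11.48, 10.97, 10.13 and 10.87 in IL-23 mice, against 7.30, 8.79, 8.93, 9.03 and 9.67 in naïve mice (log2 fold change 2.13 ± 0.32, adjusted p = 4.1e-05), and its 2 other probe-sets rose by 2.61 and 3.43. Icam1, the ligand of leukocyte integrins, rose by 1.13 ± 0.19, with no overlap between the groups, and was at 0.85 without naïve mice 1 and 2, under the FCH threshold (adjusted p = 3.65e-05). Cd93 rose by 1.22 ± 0.20.

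Among 24 angiogenic factors and receptors 2 rose and 4 fell (median -0.06), against 9.02% and 8.60% of all genes. Vegfa, the main growth factor of vessels, was at -0.22 ± 0.12 (adjusted p = 0.137). Hgf, the hepatocyte growth factor, had values of 6.53, 5.45, 5.52, 4.27 and 4.21 in IL-23 mice, against 2.06, 2.17, 2.14, 2.10 and 2.33 in naïve mice. It was near background in naïve skin and at least 4.59-fold higher (adjusted p = 7.53e-07). Pgf, placental growth factor, was at least 1.84-fold higher, likewise from near background (adjusted p = 0.00424). Pdgfb, with which endothelium recruits pericytes, had values of 5.21, 6.85, 6.07, 5.54 and 5.28 in IL-23 mice, against 7.39, 8.05, 8.30, 8.11 and 7.82 in naïve mice (log2 fold change -2.15 ± 0.32, adjusted p = 4.66e-05). Pdgfa fell by 1.25 (SE 0.15) and the endothelin receptor Ednrb by 1.22 (SE 0.23). Edn1, endothelin 1, fell by 1.10 (SE 0.37), and was at -0.40 without naïve mice 1 and 2, where it did not pass. In the hypoxia list, which holds targets of HIF, 2 of 15 rose and 0 fell (median 0.32), namely Egln3 (1.15 ± 0.27, with 0.98 without naïve mouse 5, where it did not pass) and the carbonic anhydrase Car12 (1.30 ± 0.20).

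Of 16 genes of pericytes and smooth muscle, 8 fell and 0 rose (median -0.96), with list means of 9.10 to 9.59 in IL-23 mice and 10.00 to 10.54 in naïve mice. Cspg4, the pericyte proteoglycan NG2, had values of 5.28, 6.28, 7.19, 7.37 and 7.50 in IL-23 mice, against 9.75, 9.15, 9.22, 8.67 and 8.21 in naïve mice (log2 fold change -2.27 ± 0.39, adjusted p = 0.000153), with its other tested probe-set at -0.87 and not called. Abcc9, a channel subunit of pericytes, fell by 1.57 (SE 0.29), the contractile genes Lmod1 and Mylk by 2.05 and 1.10 (SE 0.39 and 0.16) and Myh11, the myosin of smooth muscle, by 1.36 (SE 0.34), with the other tested probe-set of Myh11 at -0.02. Acta2 and Rgs5 were at -0.90 ± 0.17 and -0.57 ± 0.17 (adjusted p = 0.000287 and 0.0114), under the FCH threshold. Without naïve mice 1 and 2, 5 of the 16 fell. The list does not separate vessel walls from the muscle of hair follicles.

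Of 17 genes of coagulation and fibrinolysis, 3 rose and 1 fell (median 0.20), against 9.02% and 8.60% of all genes. Of the 3 that rose, Plaur was also counted among the matrix proteases and inhibitors. F7, coagulation factor VII, had values of 6.40, 7.04, 7.44, 6.72 and 6.45 in IL-23 mice, against 3.02, 3.43, 3.06, 3.67 and 3.13 in naïve mice (log2 fold change 3.55 ± 0.26, adjusted p = 1.73e-08). F10, factor X, its substrate, had values of 9.13, 9.36, 10.10, 8.77 and 8.75 in IL-23 mice, against 4.40, 5.73, 6.03, 7.14 and 6.74 in naïve mice (log2 fold change 3.22 ± 0.40, adjusted p = 6.32e-06). The groups did not overlap in either gene. F3, tissue factor, which starts clotting together with factor VII, went the other way, with values of 8.88, 9.19, 9.68, 8.48 and 9.09 in IL-23 mice, against 10.48, 10.52, 10.50, 10.68 and 10.52 in naïve mice (log2 fold change -1.47 ± 0.22, adjusted p = 5.37e-05). In the 7 lymphatic genes, Lyve1 was the member that fell, and 0 rose (median 0.14). It had values of 9.45, 9.77, 9.32, 9.41 and 9.56 in IL-23 mice, against 9.07, 10.07, 11.91, 13.64 and 12.52 in naïve mice. IL-23 mice lay within a narrow range, whereas naïve mice differed among themselves by more than 4 units (log2 fold change -1.94 ± 0.58, adjusted p = 0.011). Lyve1 is also made by skin macrophages, and Prox1, the defining transcription factor of lymphatic endothelium, was at 0.14 ± 0.30 (adjusted p = 0.721). Without naïve mice 1 and 2, 3 of the 7 lymphatic genes fell and 0 rose (median -0.14). Those were Lyve1 (-3.19), Reln (-1.27) and Mmrn1 (-1.17), while Prox1 was at -0.14. Lymphatic list means were 9.64 to 10.03 in IL-23 mice, against 8.80, 10.30, 10.56, 10.65 and 10.63 in naïve mice.

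**Figure D3:**
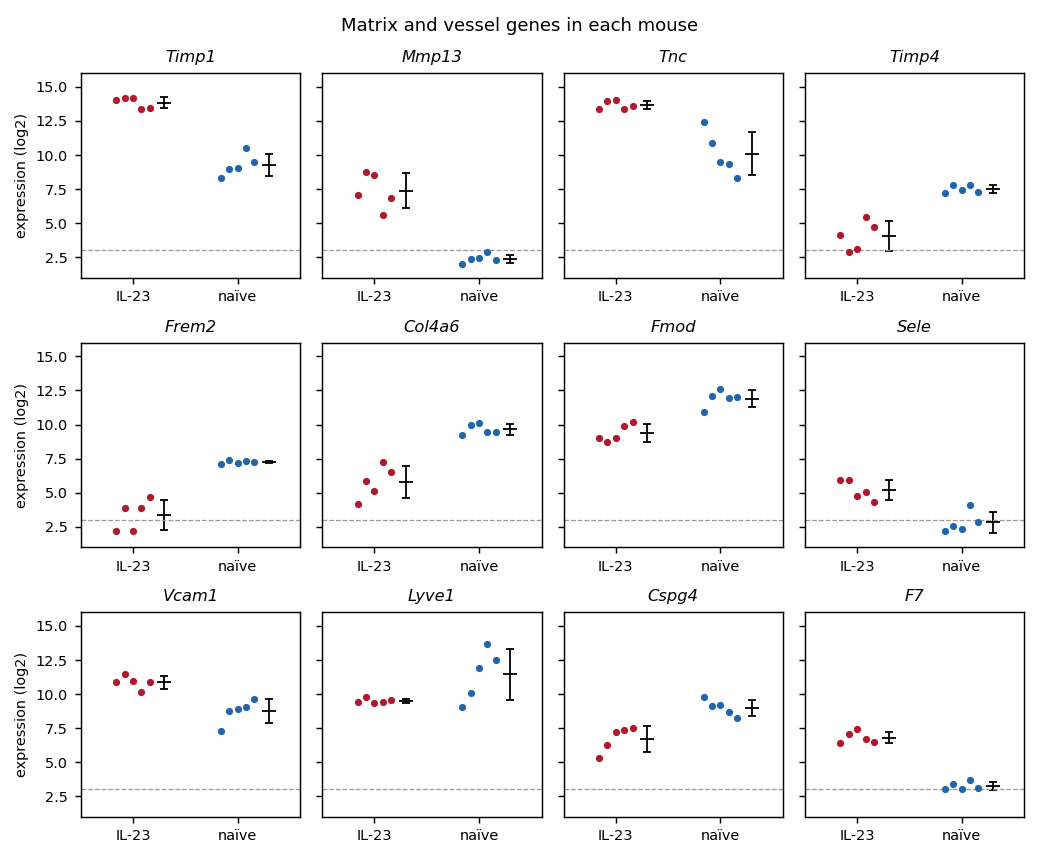
Expression on the log2 scale (y axis) of 12 matrix and vessel genes in each mouse, with IL-23 and saline in red on the left, naïve in blue on the right, mean and SD (n = 5 mice) as black bars and the limit of 3 for near background as a dashed line. IL-23 and naïve mice are apart in Timp1 and Timp4 in opposite directions, and in Lyve1 the naïve mice spread from 9.07 to 13.64.

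Among genes of Schwann cells, which ensheath the axons of skin, more fell than rose. Of 17 genes 6 fell and 1 rose (median -0.65), with list means of 6.24 to 6.41 in IL-23 mice and 6.66 to 6.92 in naïve mice. Sox10, the transcription factor of Schwann cells and melanocytes, had values of 2.94, 3.05, 2.61, 4.33 and 3.45 in IL-23 mice, against 7.69, 6.59, 7.05, 5.78 and 6.12 in naïve mice. The groups did not overlap (log2 fold change -3.37 ± 0.48, adjusted p = 2.6e-05), while the other tested probe-set of Sox10 was at -0.48 and not called. Cdh19, a cadherin of Schwann cells and their precursors, had values of 4.46, 4.40, 3.82, 4.46 and 4.39 in IL-23 mice, against 5.84, 6.92, 7.20, 6.53 and 7.36 in naïve mice (log2 fold change -2.46 ± 0.29, adjusted p = 3.97e-06). Drp2, a part of the myelin scaffold, had values of 7.70, 7.66, 7.58, 7.68 and 7.56 in IL-23 mice, against 7.96, 9.27, 9.64, 9.74 and 9.54 in naïve mice (log2 fold change -1.59 ± 0.28, adjusted p = 0.000212), with its other tested probe-set at -0.21. Mal and S100b fell by 2.07 and 1.54 (SE 0.30 and 0.25), and the other tested probe-set of Mal was at -0.61. Mbp, the myelin basic protein, was at 0.43 ± 0.20 at the probe-set with the highest mean (adjusted p = 0.0913), while of its 7 other tested probe-sets 5 fell past both thresholds, and the probe-sets of Mbp thus disagree. Fabp7, a fatty acid binding protein of glia that other cells also make, was the member that rose, with values of 9.73, 9.14, 8.57, 7.25 and 8.03 in IL-23 mice, against 7.63, 5.28, 4.08, 3.45 and 3.58 in naïve mice (log2 fold change 3.74 ± 0.64, adjusted p = 0.000164). Melanocyte genes fell as well, in 6 of 11 members (median -2.48), with list means of 5.78 to 6.11 in IL-23 mice and 6.56 to 11.99 in naïve mice. Their part in the fall of Sox10 was not tested, and without naïve mice 1 and 2 its log2 fold change was -3.04 (adjusted p = 0.00041).

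Of 29 neurotrophic and axon guidance genes, 9 fell and 1 rose (median -0.74). Ntrk3, the receptor of neurotrophin 3, had values of 3.30, 3.26, 3.41, 4.69 and 4.69 in IL-23 mice, against 8.45, 7.30, 6.22, 5.99 and 6.52 in naïve mice (log2 fold change -3.03 ± 0.45, adjusted p = 4.44e-05), and 1 of its 4 other tested probe-sets fell too. Sema3d, a secreted guidance cue, had values of 8.79, 8.62, 8.32, 9.20 and 8.24 in IL-23 mice, against 9.73, 11.34, 11.16, 11.39 and 11.36 in naïve mice (log2 fold change -2.37 ± 0.29, adjusted p = 6.82e-06). Ntn1, netrin 1, had values of 6.28, 6.36, 5.89, 6.97 and 6.97 in IL-23 mice, against 8.08, 8.36, 8.32, 8.93 and 8.87 in naïve mice (log2 fold change -2.02 ± 0.30, adjusted p = 4.5e-05). In each of these 3 genes the IL-23 mice lay below all naïve mice. The netrin receptor Unc5b fell by 2.06 (SE 0.48) and Gfra2, the receptor of neurturin, by 1.51 (SE 0.27). Clcf1, a cytokine that supports neurons, was the member that rose (1.25 ± 0.26), and was just short of the FCH threshold without IL-23 mouse 3. Sema3a, which repels sensory axons, and Gdnf were at 0.68 ± 0.24 and -0.47 ± 0.19 (adjusted p = 0.0259 and 0.0479), though the other tested probe-set of Sema3a was called higher at 2.07, and the growth factor Artn was near background in both groups.

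Itch and pain genes moved in both directions, with 4 of 21 higher and 4 lower (median -0.52). Nppb, a natriuretic peptide that transmits itch in sensory neurons of mice, had values of 5.31, 5.30, 6.85, 3.18 and 6.36 in IL-23 mice, against 2.03, 2.02, 2.02, 2.03 and 2.02 in naïve mice. It was near background in naïve skin and at least 5.28-fold higher (adjusted p = 0.00133). Hrh2, a histamine receptor, was at least 2.59-fold higher (adjusted p = 0.000246), whereas Hrh1, another histamine receptor, fell by 1.32 (SE 0.38). The bradykinin receptor Bdkrb2 rose by 1.36 ± 0.41 and Osmr, a subunit of the receptors for oncostatin M and IL-31, by 1.03 ± 0.14. Il31ra, the other subunit of the IL-31 receptor, fell, with values of 8.82, 8.63, 8.57, 9.80 and 9.19 in IL-23 mice, against 7.63, 10.73, 11.30, 11.43 and 10.99 in naïve mice. Naïve mouse 1 lay below every IL-23 mouse and the other naïve mice above them (log2 fold change -1.42 ± 0.53, adjusted p = 0.0382). Tslp, an epithelial cytokine of type 2 immunity that acts on sensory neurons, had values of 8.38, 8.43, 7.86, 9.22 and 9.43 in IL-23 mice, against 7.87, 10.28, 11.21, 9.68 and 11.95 in naïve mice (log2 fold change -1.53 ± 0.55, adjusted p = 0.0297). Naïve mouse 1 was the lowest of its group in this gene too. Both calls were lost when any of several single mice was left out. Il31ra did not pass without naïve mouse 2, 3, 4 or 5, or without IL-23 mouse 1, 2, 3 or 5 (adjusted p 0.0522 to 0.0986). Tslp did not pass without naïve mouse 2, 3 or 5, or without IL-23 mouse 1, 2 or 3 (adjusted p 0.0542 to 0.0913). Penk, which encodes enkephalins, the opioid peptides, fell by 1.65 (SE 0.44). Osmr was at 0.86 without naïve mice 1 and 2, under the FCH threshold (adjusted p = 2.97e-05).

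Skin holds the axons of sensory neurons, whose cell bodies lie in ganglia. The neuronal genes Nefl, Prph and Scn10a lay near background in all 10 mice, and 10 of the 16 genes of the neuronal list on the array were not tested. Of the 6 tested, 2 rose and 0 fell (median 1.26). Uchl1, an axonal ubiquitin hydrolase, had values of 4.65, 5.75, 6.64, 4.09 and 3.07 in IL-23 mice, against 2.08, 2.20, 2.03, 2.03 and 2.06 in naïve mice, at least 3.58-fold higher in IL-23 skin (adjusted p = 0.00108). Syn1, a synaptic vesicle protein, rose by 2.35 ± 0.36. Tubb3, a tubulin of neurons that other cells also make, had values of 5.80, 7.61, 8.43, 6.45 and 7.58 in IL-23 mice, against 10.51, 6.95, 4.08, 2.78 and 2.07 in naïve mice. The IL-23 mice lay within the range of the naïve mice, and the difference of 1.90 ± 1.19 did not pass (adjusted p = 0.203). Without naïve mice 1 and 2 it was called higher (adjusted p = 0.000632). Of 6 Merkel cell genes 1 rose and 0 fell (median -1.10). The gene was Chga, chromogranin A, at least 2.83-fold higher from near background (adjusted p = 1.17e-05), while Krt20, the keratin of Merkel cells, was at -0.82 ± 0.32 (adjusted p = 0.0457) and Atoh1, their transcription factor, was near background in all mice. Without naïve mice 1 and 2, 3 of the 6 fell and 1 rose (median -0.65). Those that fell were Krt20 (-1.04), Isl1 (-1.26) and Scg3 (-2.29).

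**Figure D4:**
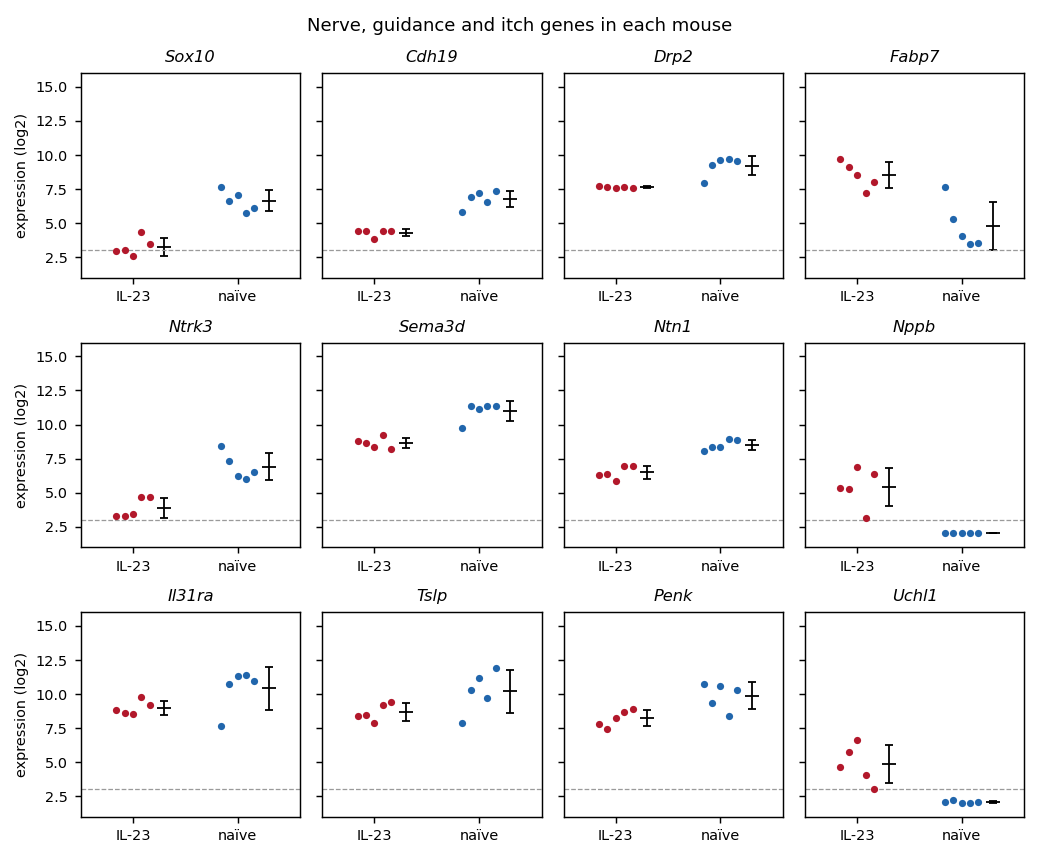
Expression on the log2 scale (y axis) of 12 nerve, guidance and itch genes in each mouse, with IL-23 and saline in red on the left, naïve in blue on the right, mean and SD (n = 5 mice) as black bars and the limit of 3 for near background as a dashed line. Sox10, Cdh19, Ntrk3, Sema3d and Ntn1 are lower in every IL-23 mouse than in every naïve mouse, and Nppb and Uchl1 are near background in all naïve mice.

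Markers of the cells that the samples hold are given beside these results. T cell genes rose in 11 of 13 members (median 2.48), macrophage genes in 4 of 13 with 2 lower (median 0.38), dendritic and Langerhans cell genes in 3 of 13 with 3 lower (median 0.20), mast cell genes in 5 of 10 (median 0.92) and B cell genes in 4 of 4 (median 5.14). Without naïve mice 1 and 2, 9 T cell genes, 3 mast cell genes and 4 B cell genes rose. Macrophage genes then rose in 2 members with 2 lower (median 0.12), and Adgre1 (0.84) and Fcgr1 (0.97) no longer passed the FCH threshold. Dendritic and Langerhans cell genes stayed at 3 higher and 3 lower. Among the B cell genes Jchain, the joining chain made by plasma cells, had values of 12.40, 9.63, 9.17, 12.29 and 11.27 in IL-23 mice, against 3.27, 5.23, 4.61, 4.05 and 4.36 in naïve mice, whereas Cd79a was near background in all mice. Macrophage genes differed in kind. Marco, a scavenger receptor, rose by 9.52 ± 0.38, while Cd163, a haem scavenger receptor of resident macrophages, had values of 12.11, 11.75, 11.60, 12.53 and 12.86 in IL-23 mice, against 12.18, 13.52, 13.82, 13.76 and 14.32 in naïve mice (log2 fold change -1.35 ± 0.35, adjusted p = 0.00504). Red blood cell genes were near background in IL-23 skin, and of 2 tested Slc4a1, which stood at 9.89 and 6.78 in naïve mice 1 and 2, was called lower, with a log2 fold change of -0.21 without them. Cell cycle genes rose in 2 of 30 members with all mice (median 0.63) and in 10 without naïve mice 1 and 2 (median 0.85). Of 18 genes of the unfolded protein response 0 rose and 0 fell (median 0.21, with 6 higher and 1 lower at an unadjusted p under 0.05).

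Of 16 genes of the circadian clock, 1 rose and 2 fell (median -0.16), against 9.02% and 8.60% of all genes. Hlf, a clock-controlled transcription factor, fell by 2.48 (SE 0.39) and Npas2 by 1.43 (SE 0.31), whereas Bhlhe40 rose by 1.08 ± 0.18, and by 0.94 without naïve mouse 5, where it did not pass. Of 12 genes of steroid enzymes and the response to glucocorticoids, 3 rose and 1 fell (median 0.09). Cyp7b1, a hydroxylase of oxysterols, had values of 12.47, 12.28, 12.56, 11.82 and 12.13 in IL-23 mice, against 5.73, 8.13, 8.71, 10.63 and 9.83 in naïve mice (log2 fold change 3.65 ± 0.58, adjusted p = 7.99e-05). Hsd11b1, which activates glucocorticoids, rose by 1.32 ± 0.30, and was at 0.97 without naïve mice 1 and 2, under the FCH threshold. Fkbp5, a glucocorticoid target, was at -0.13 ± 0.23 (adjusted p = 0.656), and Zbtb16, another target, fell by 1.28 (SE 0.24).

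**Figure D5:**
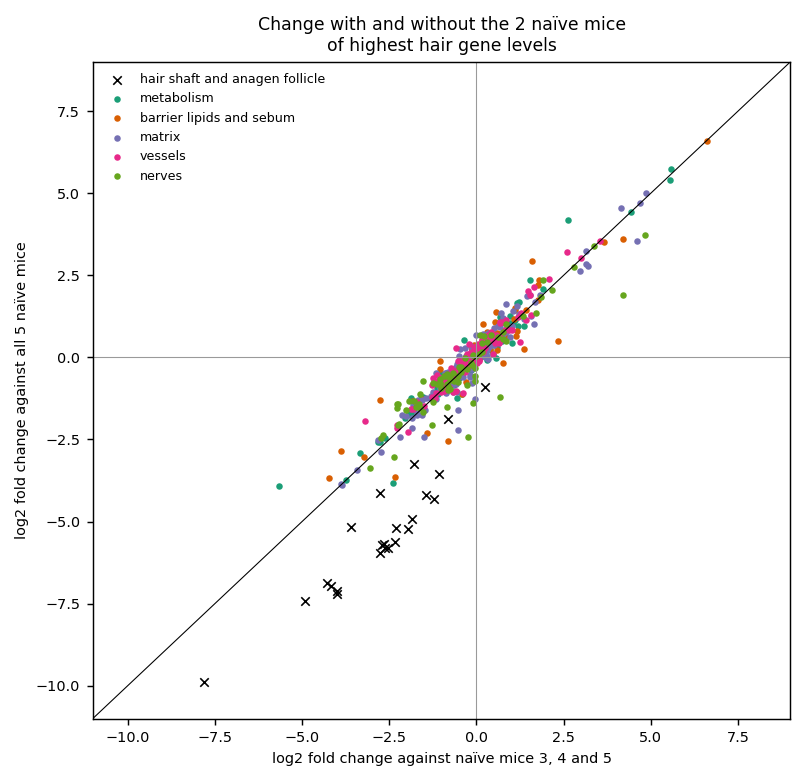
Log2 fold change against all 5 naïve mice (y axis) and against naïve mice 3, 4 and 5 alone (x axis) for tested genes of the metabolic, barrier lipid, matrix, vessel and nerve lists (coloured points) and of the hair list (crosses), each over 5 IL-23 mice, with a line of equality. The hair genes lie below the line, with 22 of 23 lower with all mice and 7 without naïve mice 1 and 2.

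The lists differed in how far they rested on naïve mice 1 and 2. Without these mice, 9 of 15 adipocyte genes fell (7 with all mice), 7 of 28 basement membrane genes (8 with all mice), 8 of 17 Schwann cell genes (6 with all mice), 9 of 29 guidance genes (9 with all mice) and 10 of 25 skeletal muscle genes (5 with all mice). Matrix protease genes rose in 7 of 24 members (9 with all mice), activated endothelium in 5 of 13 (5 with all mice), eicosanoid genes in 9 of 27 (10 with all mice) and glycolysis genes in 3 of 19 (5 with all mice). With the hair list mean as a covariate, 5 matrix protease genes rose (list median 0.05, against 0.34), 6 eicosanoid genes (median 0.16, against 0.37) and 3 glycolysis genes (median 0.38, against 0.48). Without naïve mice 1 and 2, and with no covariate, hair genes fell in 7 of 23 members (22 with all mice) and melanocyte genes in 4 of 11 (6 with all mice).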

How the data were processed

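Skin of 5 IL-23 mice and 5 naïve mice was measured on Affymetrix whole-genome mouse arrays. The authors checked the arrays for blemishes and quality with Harshlight and arrayQualityMetrics and deposited log2 values normalized with GCRMA over all 20 arrays, the GCRMA version not being given in the sources used here. GCRMA corrects the background by probe sequence and summarises each probe-set, so that dim probe-sets collapse onto 2.02 and their fold changes shrink. From these values, Affymetrix control probe-sets were left out and a probe-set was kept where at least 3 arrays exceeded a log2 value of 2 and its SD exceeded 0.1. One model with the means of all 4 groups of the series was fitted with limma 3.58.1 in R 4.3.3, and adjusted p-values run over all probe-sets kept. Exact permutation tests used SciPy 1.17.1. The fit was tested on simulated data with known changes. Genes were named through the platform annotation and RefSeq symbols, using probe-sets with a single symbol.

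The members and lists were chosen with earlier results of these data known. Named genes are the 10 called genes that rose most and the 10 that fell most, without overlap of the groups and with both means at 3 or above, key members of each list, and up to 5 called members of each list in each direction. Replicate numbers follow the order of deposition and pair no samples. Nothing in the sources ties mice to litters or cages, so such effects cannot be told apart from the groups. The limma p-values and SE rest on the spread within all 4 groups of the series, with a variance prior shared over probe-sets. They do not measure the spread of the IL-23 and naïve mice alone. Promoters came from RefSeq (GRCm38.p6). Alternatives were another filter, floor, scaling, sample set, variance prior, threshold and probe-set, each mouse left out, naïve mice 1 and 2 left out, and a covariate made of the hair list mean. Some genes of the lists were not analysed here.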

Additional observations from a re-analysis of the deposited data

Results flagged for a closer look

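Values far from the other mice of their group were sought in groups of 5 with Dixon's ratio of the gap to the range, leaving out groups whose values all lay below 3, since values at the floor have no order. Of 490 groups tested over the lists and genes named here, 43 (8.78%) held such a value, and chance alone gives about 1 in 20 (5%). Naïve mouse 1 held 30 of the 43.

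Among list means, naïve mouse 1 was low for elastic fibre genes (9.89, with the other naïve mice at 10.43 to 10.51), small leucine-rich proteoglycans (9.17, others 9.69 to 9.90), provisional matrix (9.57, others 9.99 to 10.13) and fibroblast genes (9.85, others 10.36 to 10.46). It was also low for lymphatic genes (8.80, others 10.30 to 10.65) and for dendritic and Langerhans cell genes (8.10, others 9.20 to 9.49). It was high for cell cycle genes (10.76, others 9.43 to 9.78). Naïve mouse 4 was high for the unfolded protein response (11.44, others 11.10 to 11.14).

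Naïve mouse 1 was the lowest of its group in matrix genes, namely Dcn (14.23), Lum (11.52), Kera (5.18), Itih5 (11.35), Sparcl1 (9.04), Mmp3 (9.31) and Chrdl1 (9.43). It was the lowest in lipid and glucose genes, namely Abca12 (6.59), Aldh1a1 (9.31), Alox15 (2.93), Lpin1 (9.41), Scd3 (10.25) and Slc2a3 (7.12). It was likewise the lowest in Icam1 (10.29) and Prox1 (6.82) of the vessels, in the nerve and itch genes Drp2 (7.96), Mbp (9.61), Sema3d (9.73) and Il31ra (7.63), and in the clock genes Hlf (7.72) and Npas2 (9.05). It was the highest in Bdkrb2 (4.68) and Junb (7.41).

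Among the other naïve mice, mouse 3 was highest in Mogat1 (6.19), mouse 4 highest in F3 (10.68) and lowest in Omd (9.40), and mouse 5 highest in Fap (11.89). Among the IL-23 mice, mouse 2 was highest in Acta2 (11.99), Cpt1a (10.70) and Elovl4 (13.47). IL-23 mouse 3 was lowest in Cdh19 (3.82), Col4a5 (6.39) and Tgfb1 (9.01), and IL-23 mouse 5 lowest in Edn1 (6.76) and Gdnf (4.07).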

How the results depend on the processing

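The counts of called genes and probe-sets stayed within 1.5 times under all 22 alternatives. With each mouse left out in turn, 1143 to 1284 genes rose and 1075 to 1302 fell, and under the other alternatives 1043 to 1273 rose and 969 to 1237 fell. Another scaling moved the median of all genes by -0.023 or 0.002. Of the 156 called genes named here, 137 passed both thresholds without naïve mice 1 and 2 and 19 did not, 137 passed with the 2 groups compared alone, and 143 to 155 passed with 1 mouse left out. With the hair list mean as a covariate, whose values do not overlap between the groups, 119 passed, 33 did not and 4 changed direction. Among those that then did not pass were Ptgs2 (1.33), Ptgis (0.57), Ptges (1.00), Alox15 (1.45), Plaur (1.35), Mmp9 (1.07), Slc11a1 (1.12), Cp (0.89), Slc16a3 (0.97), Atf3 (0.84), Bmp6 (-0.65), Cybrd1 (-1.58), Unc5b (-0.71) and Penk (-1.26), with log2 fold changes in parentheses. With that covariate 5 of 24 matrix protease genes rose (9 without it), 6 of 27 eicosanoid genes (10), 3 of 19 glycolysis genes (5) and 5 of 13 genes of activated endothelium (5), and 2 of 11 melanocyte genes fell (6). Over all genes, 29 of 1240 that rose and 91 of 1181 that fell changed direction with that covariate. It turned the median of the hair list to 0.62 and that of the red blood cell list to 0.56, and Bambi to 0.62, Edn1 to 0.10, Fras1 to 0.03 and Slc4a1 to 1.03, none of which passed. Without naïve mice 1, 2 and 3, chosen after seeing the data, the red blood cell median was 0.08, Bambi 0.00 and Slc4a1 0.01. The cause was not tested. No paired analysis was possible because replicate numbers follow the order of deposition. Under the filter asking for a value above 4 in 5 arrays, the red blood cell list had no value. Values near the floor limit the fold changes of dim genes, and the background correction was not varied.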
